A study of Mus musculus with 6 samples.

Results

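The 10 genes described here control how many mitochondria a heart cell makes and how these fuse. They are the coactivators Ppargc1a and Ppargc1b, the nuclear receptors Esrra and Esrrg, the transcription factors Nrf1 and Gabpa, the mitochondrial DNA factor Tfam, and the fusion GTPases Mfn1, Mfn2 and Opa1. They were chosen by gene symbol in the probe-to-gene table of the array, which gave 27 of 45101 probe sets and 10 of the 18193 genes represented by a probe set with a single symbol. A probe set is a group of short DNA probes whose joint fluorescence reports the abundance of 1 transcript. Left ventricle RNA from 6 male C57BL/6 mice was measured, with 1 array per mouse and 3 mice in each group. The mice of the Lira group received an agent that the labels name only as Lira, and those of the placebo group received placebo. All 6 mice were 6 months old and had been kept for 16 weeks on a high fat diet, so the comparison is between obese mice and no lean mice are part of it. A total of 10 mice is named in the study design, of which these 6 were analysed here.

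PGC-1alpha, the product of Ppargc1a, and PGC-1beta, the product of Ppargc1b, bind no DNA themselves and act by docking on transcription factors. In the heart their main partners are the estrogen-related receptors ERRalpha and ERRgamma, encoded by Esrra and Esrrg, and the nuclear respiratory factors, encoded by Nrf1 and Gabpa. These factors drive nuclear genes of the respiratory chain and also Tfam, whose protein enters mitochondria, packs their DNA and starts its transcription. The mitofusins Mfn1 and Mfn2 join the outer membranes of neighbouring mitochondria, and Opa1 joins the inner membranes and shapes the cristae.

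The arrays carried the signature of ventricle. The 8 cardiomyocyte markers were all measured, and the myosin gene Myh6 gave 31552 to 39205 signal units with Lira and 31826 to 33442 with placebo. The labels' extraction text speaks of blood, and the red blood cell markers cannot decide how much blood RNA was present. Only probe sets with a single symbol were used, which covered 3 of the 5 genes of that list. On such a probe set the haemoglobin gene Hba-a1 gave 6.92 to 17.4 with Lira and 0.856 to 31.8 with placebo, below the intensity filter. The red blood cell list, with 3 genes on the array, summed to 32.4 to 55.1 with Lira and 43.6 to 110.6 with placebo. Its other measured genes passed the filter with negative differences, -0.60 ± 0.33 for Slc4a1, whose groups did not overlap, and -0.52 ± 0.51 for Alas2. The atrial marker Myl7 stayed at or under 3.34 with Lira and 17.3 with placebo, and the brown fat marker Ucp1 at or under 10.8 and 3.74. The other brown fat genes passed the filter, Cox8b at means of 20023 with Lira and 18869 with placebo and Cidea at 914 and 1031. Elovl3, at 26.8 and 34.3, and Dio2, at 37.3 and 47.6, were dim. The list summed to 19780 to 22920 with Lira and 18817 to 21226 with placebo, nearly all of it Cox8b. Of the white fat list, Adipoq, Lep and Cidec were below the filter. Its genes Fabp4, at means of 17331 with Lira and 16881 with placebo, and Retn, at 31.4 and 26.7, passed it with overlapping groups. Which cells gave the Cox8b and Fabp4 signals was not tested. The skeletal muscle list, of which 3 of 6 genes were tested, summed to 1513 to 2009 with Lira and 2741 to 3688 with placebo, nearly all of it Acta1, an actin that heart muscle also makes. Acta1 was lower on every Lira array, at -0.90 ± 0.13 (adjusted p = 0.022, limma). It was the only marker of any list past an adjusted p of 0.05. The summed signal of the atrial list was 1618 to 2268 with Lira and 2787 to 3218 with placebo, mostly Nppa, which the stressed ventricle also makes. Nppa was lower on every Lira array, at -0.67 ± 0.13. Myl4 went the other way, higher on every Lira array at 0.27 ± 0.17, and Bmp10 gave -0.61 ± 0.60 with overlapping groups. The summed signal of the cardiomyocyte list was 198981 to 250122 with Lira and 198672 to 210444 with placebo, highest on Lira replicate 2, and all 8 had positive differences (median 0.12). Among these 8 the groups were separate for Ryr2, at 0.19 ± 0.08. All 6 macrophage markers had positive differences (median 0.16, 2 with separate groups), and their sum was 3587 to 4395 with Lira and 3273 to 3834 with placebo. The fibroblast list, 4 of 7 positive, summed to 11603 to 14135 with Lira and 11250 to 12183 with placebo, with separate groups for Dcn at 0.23 ± 0.08 and Col3a1 at -0.51 ± 0.13. The smooth muscle list, 3 of 5 tested genes positive, summed to 10664 to 12084 with Lira and 9255 to 10388 with placebo, with separate groups for Acta2 at 0.75 ± 0.23. The endothelial list, 5 of 6 positive, summed to 2791 to 3016 with Lira and 2459 to 3007 with placebo. Of the macrophage, fibroblast, smooth muscle and endothelial markers, 0 passed an adjusted p of 0.05 (limma). The part of these differences in the values below was not tested. In tissue RNA, fewer cells of a type and less transcript per cell cannot be told apart.

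Motifs of NRF1 or GABPA were found in promoter windows of 5 of the 9 genes searched. Promoter windows of 300 bases, from 250 before to 50 after a transcription start, were read from the RefSeq table of build GRCm38.p6, which gave 15 windows for the 9 genes used. Both strands were searched for 4 motifs. The ETS core CCGGAAG, which GABPA binds, was found in 3 of the 15 windows and in 8.86% of all 32851 windows. The motif GCATGCGC, bound by NRF1, was found in 2 of 15 and in 2.71% of all windows. The ERR monomer site AAGGTCA, in 4.72% of all windows, and the cAMP response element TGACGTCA, in 1.79%, were found in 0 of the 15. None of the 4 motifs overlapped another at these matches. The 5 windows with a match are printed 5′ to 3′ on the gene's strand because they set Nrf1 and Gabpa beside other genes of the set, with the matches in capitals. They lie at chr16:29579084-29579383 (plus strand), chr19:6921759-6922058 (minus), chr16:84834874-84835173 (plus), chr10:71237995-71238294 (minus) and chr3:32529232-32529531 (plus). In Opa1 the NRF1 motif reads on both strands in 1 overlapping run that begins at -59 from the start, and in Esrra it begins at -34. The ETS core begins at -93 in Gabpa, where it reads on the opposite strand, at -47 in Tfam and at -44 in Mfn1. A match describes the letters and does not show that a factor binds there.
Opa1: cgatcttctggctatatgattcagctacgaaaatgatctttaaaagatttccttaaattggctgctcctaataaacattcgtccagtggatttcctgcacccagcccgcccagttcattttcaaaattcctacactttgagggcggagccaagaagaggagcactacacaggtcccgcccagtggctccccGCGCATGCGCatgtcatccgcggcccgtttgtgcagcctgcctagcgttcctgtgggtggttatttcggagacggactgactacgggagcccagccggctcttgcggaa
Esrra: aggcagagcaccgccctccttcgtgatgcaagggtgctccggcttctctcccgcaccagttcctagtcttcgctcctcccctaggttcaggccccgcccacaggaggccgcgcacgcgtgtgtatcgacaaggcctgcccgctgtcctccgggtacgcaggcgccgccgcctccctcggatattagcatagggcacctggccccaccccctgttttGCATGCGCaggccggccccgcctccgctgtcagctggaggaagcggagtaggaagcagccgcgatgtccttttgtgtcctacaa
Gabpa: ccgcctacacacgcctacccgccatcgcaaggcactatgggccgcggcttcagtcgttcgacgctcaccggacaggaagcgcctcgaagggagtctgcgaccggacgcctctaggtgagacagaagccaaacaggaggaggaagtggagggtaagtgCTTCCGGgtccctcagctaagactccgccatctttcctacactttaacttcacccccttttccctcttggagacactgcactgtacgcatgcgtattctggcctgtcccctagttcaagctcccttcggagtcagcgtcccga
Tfam: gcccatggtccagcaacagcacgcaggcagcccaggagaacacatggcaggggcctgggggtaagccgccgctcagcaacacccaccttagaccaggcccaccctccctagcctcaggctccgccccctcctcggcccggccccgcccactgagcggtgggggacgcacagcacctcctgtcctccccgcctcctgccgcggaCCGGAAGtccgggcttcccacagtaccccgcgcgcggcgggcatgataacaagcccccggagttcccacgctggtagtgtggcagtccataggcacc
Mfn1: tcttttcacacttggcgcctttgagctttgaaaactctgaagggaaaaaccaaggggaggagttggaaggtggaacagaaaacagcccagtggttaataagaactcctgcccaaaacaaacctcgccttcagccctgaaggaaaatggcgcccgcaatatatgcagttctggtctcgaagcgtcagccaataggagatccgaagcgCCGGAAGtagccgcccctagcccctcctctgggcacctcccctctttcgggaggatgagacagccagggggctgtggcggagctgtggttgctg

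The design asks what Lira did in the obese heart, and for the transcripts of mitochondrial biogenesis and fusion no difference was detected. With each gene represented by its probe set of highest mean, 0 of the 10 genes passed an adjusted p of 0.05 (limma with Benjamini-Hochberg adjustment over 12735 genes), where 0.055% of all genes did. At an unadjusted p under 0.05 the count was also 0 of 10, against 6.02% of all genes (2.91% higher and 3.12% lower with Lira). All 10 genes passed the filter on low signals. The fitted differences, Lira minus placebo on the log2(signal + 16) scale, ran from -0.16 for Opa1 to 0.20 for Nrf1, 5 above and 5 below 0. Their median was -0.01, and that of all genes tested was 0.0082. In 9 of 10 genes the 95% interval of the difference lay within 1.5-fold either way, as it did in 60.8% of all genes. Nrf1 was the exception, with an interval from 0.86-fold to 1.55-fold. The groups did not overlap in 1 gene, Gabpa, which was higher with Lira, against 11.4% of all genes (5.98% higher and 5.41% lower).

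**Figure D1:**
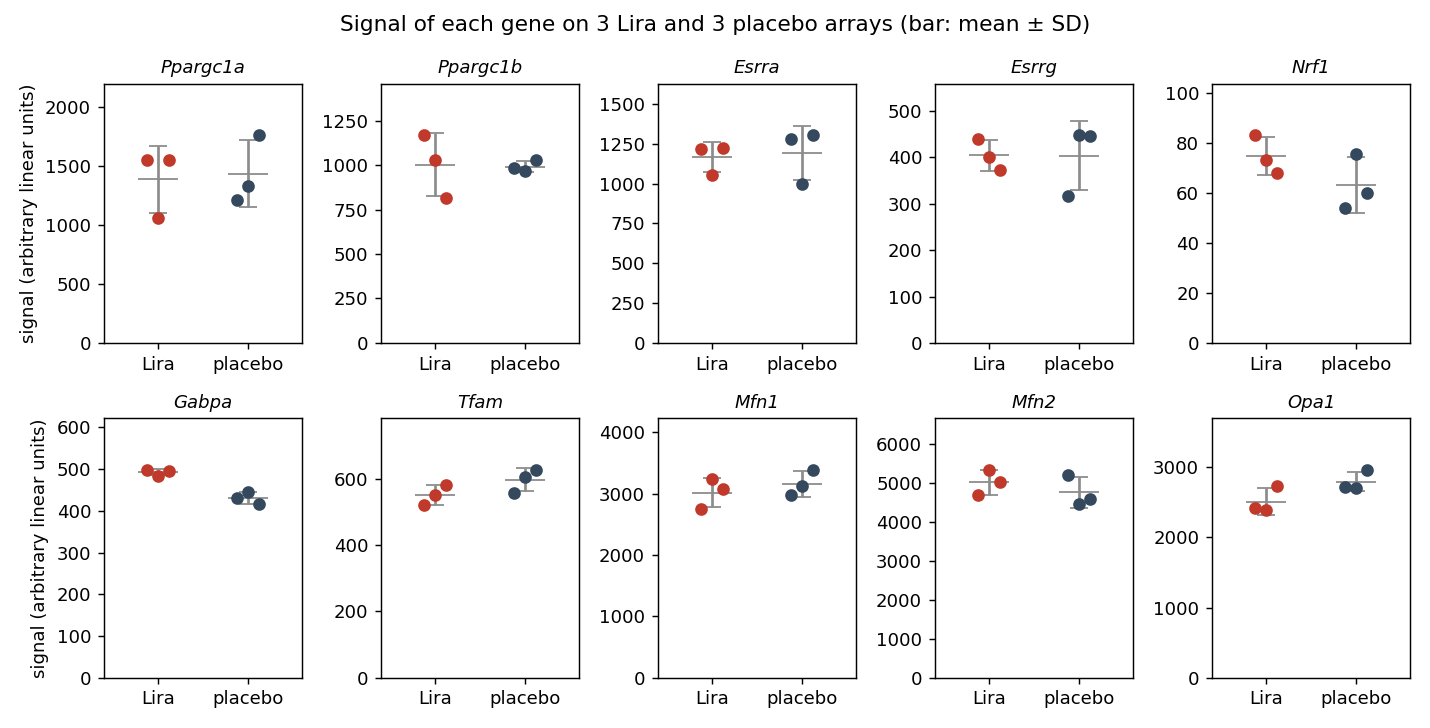
Each panel shows 1 gene, with its signal in arbitrary linear units on the vertical axis from 0 and the 3 Lira arrays left of the 3 placebo arrays (points, single mice; bar, mean ± SD). The Lira and placebo points interleave in every panel but Gabpa, where the Lira mice lie at 484 to 497 and the placebo mice at 416 to 446.

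Ppargc1a, at chr5:51454249-52115853 in GRCm38.p6, is the inducible coactivator that fasting, cold and exercise raise in many tissues. Its probe set of highest mean, 1460336_at, read 1551, 1060 and 1549 signal units in Lira mice 1 to 3, against 1214, 1333 and 1759 in placebo mice 1 to 3. The lowest value was a Lira mouse and the highest a placebo mouse, so each group spanned most of the range of the other. The means were 1387 ± 283 with Lira and 1435 ± 286 with placebo (SD, n = 3 each), a log2 difference of -0.05 ± 0.16 (SE, adjusted p = 0.98, limma). The 95% interval ran from 0.76-fold to 1.22-fold. The spread among mice given the same agent was 0.29 on the log2 scale, larger than in 74.3% of the genes tested and the widest among the 10.

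The other 4 Ppargc1a probe sets followed the same mice. Probe set 1456395_at measured 1243 ± 304 with Lira and 1321 ± 244 with placebo, and 1434099_at 930 ± 114 and 975 ± 214. Probe set 1434100_x_at measured 902 ± 141 with Lira and 965 ± 188 with placebo. Its suffix marks probes that may also bind other transcripts. Probe set 1437751_at measured 924 ± 303 with Lira and 851 ± 197 with placebo, and gave the one positive difference, 0.08 ± 0.21. In every one of the 5 probe sets Lira mouse 2 and placebo mouse 1 lay below the probe set's mean and Lira mouse 1 and placebo mouse 3 above it. Between pairs of these probe sets the correlation of log2 values over the 6 arrays was 0.67 to 0.98, with both values of a pair read from the same hybridised sample. Across the arrays the tested genes most like Ppargc1a were Insig1, Eola1 and Zmat5, with Pearson correlations of 0.994, 0.987 and 0.981 over 6 arrays, the 3 highest of 12735 genes and given as a description only. Insig1 encodes an endoplasmic reticulum protein that restrains cholesterol synthesis. Its signals were 183, 130 and 185 in Lira mice 1 to 3 and 153, 156 and 207 in placebo mice 1 to 3, lowest and highest on the same arrays as Ppargc1a.

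**Figure D2:**
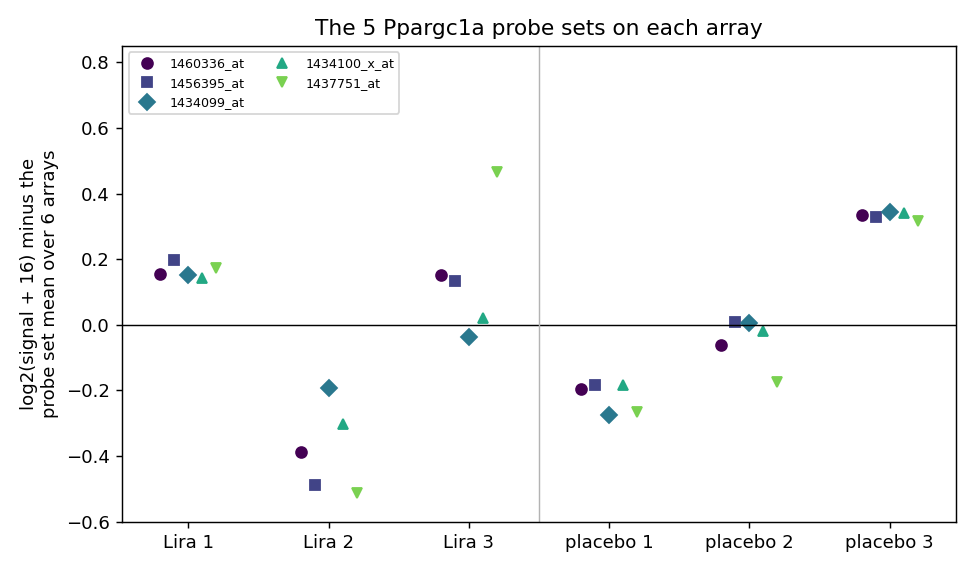
The vertical axis is log2(signal + 16) of each of the 5 Ppargc1a probe sets minus that probe set's mean over the 6 arrays, and the horizontal axis lists the 3 Lira arrays and then the 3 placebo arrays. On Lira array 2 all 5 lie between -0.51 and -0.19, and on placebo array 3 all 5 lie between 0.32 and 0.34.

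Ppargc1b, on chromosome 18, encodes the coactivator that keeps up basal mitochondrial content. It read 1168, 1029 and 816 in Lira mice 1 to 3, against 984, 966 and 1028 in placebo mice 1 to 3. The Lira mice lay on both sides of the placebo mice, which were close together. The means were 1004 ± 177 with Lira and 993 ± 32.2 with placebo (SD, n = 3 each), a log2 difference of 0.0016 ± 0.12 (adjusted p = 0.9985, limma). It has a single probe set in the table. Its values did not follow those of Ppargc1a, with a correlation of -0.02 over the 6 arrays.

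The ERR genes gave like signals in both groups. Esrra, at chr19:6910977-6922048, encodes the receptor through which PGC-1alpha turns on much of the oxidative programme. It read 1219, 1056 and 1224 in Lira mice 1 to 3, against 1282, 999 and 1302 in placebo mice 1 to 3. The log2 difference was -0.03 ± 0.12 (adjusted p = 0.99, limma), with overlapping groups. Its second probe set, 1442864_at, read 111, 92.0 and 111 with Lira and 123, 119 and 132 with placebo, so that every Lira mouse lay below every placebo mouse. That difference was -0.23 ± 0.16 with an adjusted p of 0.91 over 24461 probe sets (limma), and the probe set of higher mean did not show the separation.

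Esrrg, at chr1:187608510-188214885, encodes the ERR that the heart needs to switch to oxidative metabolism after birth. It read 440, 401 and 374 in Lira mice 1 to 3, against 318, 447 and 446 in placebo mice 1 to 3, a log2 difference of 0.02 ± 0.14 (adjusted p = 0.99, limma). Placebo mouse 1 lay below all other mice, and the other placebo mice lay above all Lira mice. Its other probe sets were dimmer, at means of 80.0 with Lira and 83.2 with placebo for 1457896_at and 19.4 and 25.8 for 1421747_at, and neither passed.

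Of the nuclear respiratory factors, Gabpa gave the one separation among the 10 genes. Gabpa, at chr16:84834891-84863783, encodes the DNA-binding subunit of the ETS factor also called NRF-2. It read 497, 484 and 496 in Lira mice 1 to 3, against 431, 446 and 416 in placebo mice 1 to 3. All 3 Lira mice lay above all 3 placebo mice, and the spread within groups was 0.04 on the log2 scale, smaller than in all but 0.628% of genes. The means were 493 ± 7.22 with Lira and 431 ± 15.3 with placebo (SD, n = 3 each). The difference of 0.19 ± 0.10 did not pass in limma, which moderates such small spreads towards those of other genes (adjusted p = 0.85, unadjusted p = 0.089). The second Gabpa probe set, 1450665_at, pointed the other way with overlapping groups. It read 107, 136 and 139 with Lira and 108, 146 and 179 with placebo, a difference of -0.15 ± 0.19. With both probe sets averaged, the difference was 0.020.

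Nrf1, at chr6:30047985-30153458, encodes the factor whose motif is shown above in Opa1 and Esrra. Its signals were low on every probe set. Probe set 1434627_at, used for the gene, read 82.8, 72.9 and 68.0 in Lira mice 1 to 3, against 53.9, 75.4 and 59.8 in placebo mice 1 to 3, a difference of 0.20 ± 0.20 (adjusted p = 0.93, limma) with overlapping groups. Probe set 1424787_a_at read 66.1, 76.5 and 71.6 with Lira, against 44.1, 56.1 and 41.5 with placebo. Every Lira mouse lay above every placebo mouse there. The difference was 0.47 ± 0.20, or 1.39-fold with an interval from 1.02 to 1.88 (limma adjusted p = 0.87, unadjusted p = 0.037). Of the probe sets of the 10 genes, 1 of 25 had an unadjusted p under 0.05, near the 5.6% of all probe sets tested (2.56% higher and 3.03% lower). That p stayed under 0.05 without placebo replicate 2 but not without any other single array, with array weights or with no filter on low values. Probe set 1445914_at gave -0.20 ± 0.26, and 1420978_at was below the filter, at 2.42 to 30.6 with Lira and 4.04 to 17.7 with placebo.

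Tfam lies at chr10:71225468-71238328, and its window above holds the ETS core but no match to the NRF1 motif. It read 521, 551 and 583 in Lira mice 1 to 3, against 559, 607 and 627 in placebo mice 1 to 3. The groups overlapped by Lira mouse 3, which lay above placebo mouse 1. The means were 552 ± 31.1 with Lira and 597 ± 34.8 with placebo (SD, n = 3 each), a log2 difference of -0.11 ± 0.10 (adjusted p = 0.92, limma). The 95% interval ran from 0.79-fold to 1.08-fold. Its second probe set, 1456215_at, measured 77.2 ± 15.9 with Lira and 80.8 ± 12.1 with placebo.

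The fusion genes varied little between mice. Mfn2, at chr4:147873586-147904909, whose protein also tethers mitochondria to the endoplasmic reticulum, read 4708, 5334 and 5024 in Lira mice 1 to 3, against 5212, 4476 and 4603 in placebo mice 1 to 3. Its log2 difference was 0.08 ± 0.09 (adjusted p = 0.95, limma) with overlapping groups. The 95% interval ran from 0.92-fold to 1.20-fold. The other Mfn2 probe set, 1451900_at, was below the filter, at 14.6 to 21.7 with Lira and 3.09 to 16.5 with placebo.

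Mfn1, at chr3:32529443-32579225, encodes the mitofusin that is the stronger tether of outer membranes. On 1449697_s_at, whose suffix marks probes shared by several transcripts, it read 2754, 3233 and 3069 in Lira mice 1 to 3, against 2971, 3125 and 3382 in placebo mice 1 to 3, a difference of -0.07 ± 0.09 (adjusted p = 0.95, limma). Probe set 1426773_at read 2470, 2281 and 2509 with Lira, against 2453, 2251 and 2033 with placebo, a difference of 0.11 ± 0.09. The groups overlapped on both, the signs differed, and both differences were less than 2 SE from 0. The third Mfn1 probe set, 1419997_at, measured 48.9 ± 21.7 with Lira and 57.8 ± 20.4 with placebo.

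Opa1, at chr16:29579281-29663127, gave the lowest difference of the 10 genes. It read 2414, 2388 and 2731 in Lira mice 1 to 3, against 2724, 2712 and 2959 in placebo mice 1 to 3. Lira mice 1 and 2 lay below every placebo mouse, and Lira mouse 3 lay between placebo mice 1 and 3. The means were 2511 ± 191 with Lira and 2798 ± 139 with placebo (SD, n = 3 each), a log2 difference of -0.16 ± 0.09 (adjusted p = 0.87, unadjusted p = 0.0996, limma). Without Lira replicate 3 the unadjusted p fell under 0.05, with an adjusted p of 0.81 (0.76 to 0.9986 over all alternatives). Its probe sets disagreed, with -0.11 ± 0.15 on 1449214_a_at and 0.34 ± 0.24 on 1418768_at, which is dimmer at means of 63.8 with Lira and 48.0 with placebo.

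Over all probe sets of the 10 genes, 25 of 27 passed the filter, 9 with positive and 16 with negative differences. Among the 25, 0 passed an adjusted p of 0.05 (limma), against 0.00818% of all 24461 probe sets tested. The groups did not overlap in 3 of 25, which were the probe sets of Esrra, Nrf1 and Gabpa described above, 2 higher and 1 lower with Lira, against 11.2% of all (5.62% higher and 5.57% lower). The 95% interval lay within 1.5-fold in 19 of 25, against 47.7% of all. Of the 9 genes with more than 1 probe set, Ppargc1a, Esrrg, Nrf1, Gabpa, Mfn1 and Opa1 had tested probe sets with both signs.

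**Figure D3:**
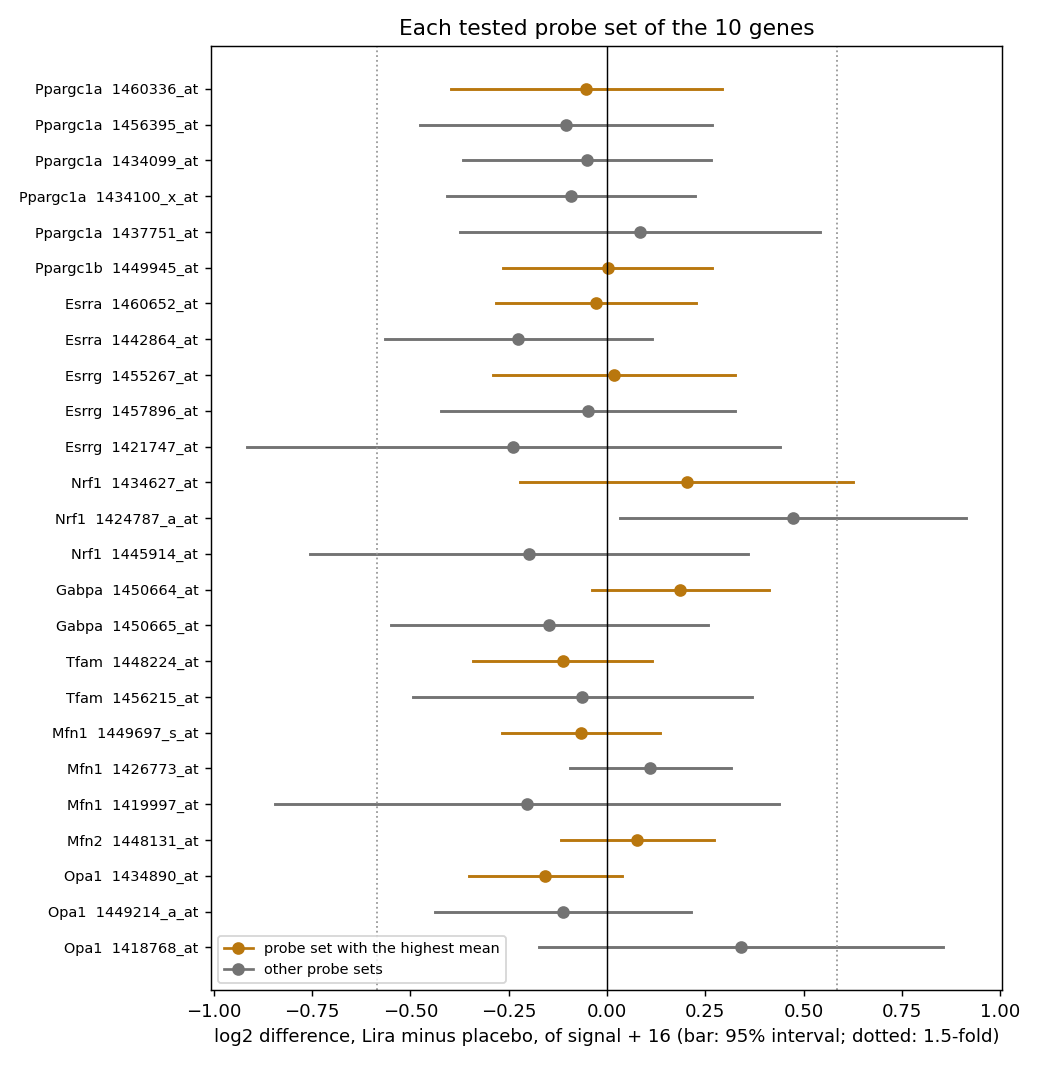
Points give the log2 difference, Lira minus placebo, of signal + 16 for each of the 25 probe sets tested, with bars for the 95% interval from limma, ochre for the probe set of highest mean of each gene and grey for the others. Dotted lines mark 1.5-fold, and the bar of Nrf1 1424787_a_at is the one that leaves out 0.

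Other genes of the pathway were taken from 4 lists, and 0 genes of any list passed an adjusted p of 0.05 (limma). The list of partners and regulators of PGC-1 had 38 tested genes, 21 higher and 17 lower with Lira, with a median of 0.02. At an unadjusted p under 0.05 there were 3 of 38, against 6.02% of all genes. Perm1, a muscle protein that PGC-1 and the ERRs induce and that in turn supports them, read 1700, 2032 and 1799 in Lira mice 1 to 3, against 1397, 1565 and 1670 in placebo mice 1 to 3. All Lira mice lay above all placebo mice, and the difference was 0.25 ± 0.10 (adjusted p = 0.75, limma). Its dimmer probe set, 1444727_at, gave 0.065 ± 0.31 with overlapping groups. The antioxidant factor Nfe2l2 read 932, 824 and 1032 with Lira, against 1208, 1074 and 1153 with placebo, a difference of -0.30 ± 0.10 (adjusted p = 0.67, limma). Esrrb, the ERR of stem cells, gave -0.65 ± 0.22 (adjusted p = 0.64, limma) on a probe set whose suffix marks cross-hybridising probes, and -0.0074 ± 0.17 on its next probe set, 1436926_at, and -0.32 ± 0.33 on its dimmest, 1422986_at.

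The list of downstream targets of PGC-1 and the ERRs had 32 tested genes, 19 higher and 13 lower, with a median of 0.02. At an unadjusted p under 0.05 there were 2 of 32, near the 6.02% of all genes. Both were lower with Lira, as were 3.12% of all genes. Vegfa, the angiogenic factor that PGC-1alpha induces through ERRalpha, read 1019, 761 and 907 in Lira mice 1 to 3, against 1181, 1162 and 1209 in placebo mice 1 to 3, a difference of -0.41 ± 0.11 (adjusted p = 0.54, limma). Its second probe set, 1451959_a_at, had the other sign, at 0.28 ± 0.20. Alas1, the first enzyme of haem synthesis, read 1869, 1678 and 1553 with Lira, against 2165, 1973 and 2346 with placebo, a difference of -0.34 ± 0.10 (adjusted p = 0.55, limma). Both its probe sets were lower on every Lira array than on any placebo array, with -0.57 ± 0.18 on 1455282_x_at.

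The lists of mitochondrial DNA maintenance and of fission held 0 genes with an unadjusted p under 0.05. Mitochondrial DNA maintenance and transcription had 20 tested genes, 9 higher and 11 lower, with a median of -0.02. Its smallest p-values belonged to Mterf4, which takes part in mitochondrial ribosome assembly, at -0.27 ± 0.13, the mitochondrial topoisomerase Top1mt at -0.33 ± 0.18 and the exonuclease Mgme1 at 0.28 ± 0.17. Fission and other dynamics had 22 tested genes, 11 higher and 11 lower, with a median of 0.0024. Its smallest p-values belonged to the ubiquitin ligase Marchf5 at -0.19 ± 0.10, whose 3 dimmer probe sets gave positive differences, to the trafficking GTPase Rhot2 at 0.22 ± 0.12 and to Oma1, the protease that cleaves Opa1, at 0.20 ± 0.11. All 6 had an adjusted p of 0.83 or more (limma).

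**Figure D4:**
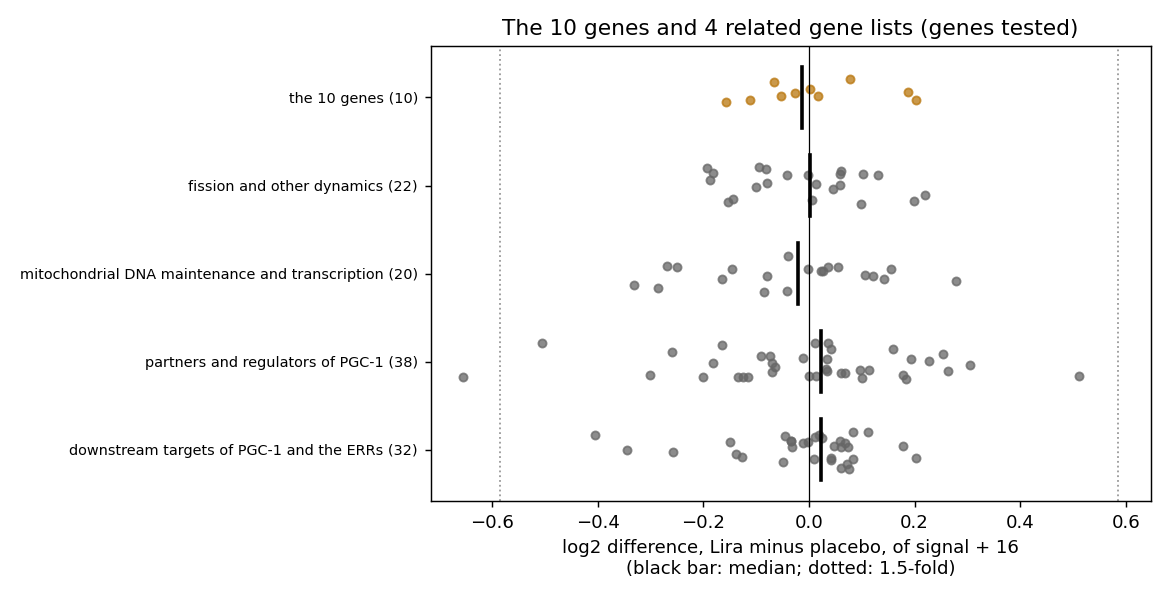
Each point is a tested gene, placed by its log2 difference, Lira minus placebo, of signal + 16, with the 10 genes in the top row and the 4 related lists under them (black bar, median; dotted lines, 1.5-fold). The median farthest below 0 is -0.0215 (mitochondrial DNA) and the one farthest above is 0.0225 (partners and regulators), and the point farthest from 0 is Esrrb at -0.65.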

How the data were processed

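Transcript abundance was measured in 6 left ventricles on Affymetrix arrays from biotin-labelled total RNA. The authors deposited 1 linear intensity for each probe set and array. Their processing notes, per the submitters, name Affymetrix Expression Console, and its version, the summarisation and the genome build were stated in no source used here. Each array's 2% trimmed mean is 150, checked on the deposited intensities, so only changes relative to other genes can be seen. Array medians were 28.6 to 39.6. Arrays carry no read depth, and their number limits precision.

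Of 35890 probe sets in the name table, 34945 with 1 gene were used. For 34741 the symbol was taken through the gene ID from the RefSeq genes of GRCm38.p6. The probe set of highest mean represented each of 18193 genes. The 30% of lowest mean were left out, which kept genes of mean signal at least 23.7 and probe sets of at least 18.3. Log2(signal + 16) was fitted in limma 3.58.1 under R 4.3.3 (lmFit and two-sided eBayes, with a variance trend and Benjamini-Hochberg adjustment). Fold changes on this scale understate those of dim genes. A second fit took every probe set. Both fits were first run on simulated data with known changes. Over 12735 genes, 73.7% of the simulated 2-fold changes and 32% of the 1.5-fold changes were called, so most changes of 1.5-fold were missed. Members and lists were chosen with earlier results of these data known. The rule for named genes takes all members and, from each list, genes with an unadjusted p under 0.05, otherwise the 3 with the smallest p. Alternatives changed the normalisation, pseudocount, filter, probe set rule, variance prior, array weights, a replicate block, and left out each array. Deviations of same-numbered mice from their group means correlated at -0.03, 0.08 and -0.09, so the numbers were not taken to pair mice. List members without a single-gene probe set were not analysed here. Sequence of the Ppargc1b promoter was not used here.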

Additional observations from a re-analysis of the deposited data

How the results depend on the processing

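Among the 10 genes, 0 passed the adjusted threshold under each of the 17 alternatives, and among their 25 probe sets 0 passed under each of the 16 run at that level. With the replicate block both counts were also 0, so the block changed no call. The number of the 10 genes whose interval lay within 1.5-fold was 9 or 10 throughout, and of probe sets 14 to 25. The count of genes with separate groups, 1 as reported, ranged from 0 with probe sets averaged per gene to 4 without Lira replicate 3 or without placebo replicate 1. The number of genes called among all 12735, 7 as reported, was 0 without the variance trend (683 at an unadjusted p under 0.05) and with probe sets averaged (684), and 1 of 18193 without a filter. Leaving out 1 array gave 1 (Lira replicate 3), 2 (placebo replicate 2), 3 (Lira replicate 2), 4 (Lira replicate 1), 8 (placebo replicate 1) or 9 (placebo replicate 3). Of probe sets, 2 as reported, 0 to 8 were called.

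The signs below turned for genes that passed the adjusted threshold in neither setting, and the cause was not tested. Quantile normalisation gave -0.0012 for Esrrg. Median centring gave -0.019 for Ppargc1b (-0.0050 among probe sets) and -0.0026 for Esrrg. Averaging probe sets per gene gave -0.089 for Esrrg, 0.024 for Opa1, 0.13 for Marchf5 and 0.048 for Nfe2l2. As reported, Opa1 was at -0.16, Marchf5 at -0.19 and Nfe2l2 at -0.30. With this averaging Gabpa kept its sign but fell to 0.020, against 0.19. Array weights gave 0.0237 for Ppargc1a and 0.036 for Esrra, and among probe sets 0.0240 for 1460336_at, 0.015 for 1434099_at and 0.027 for 1460652_at.

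Leaving out each array in turn gave -0.16 to 0.13 for Ppargc1a (1460336_at), -0.11 to 0.14 for Ppargc1b (1449945_at), -0.15 to 0.042 for Esrra (1460652_at) and -0.14 to 0.10 for Esrrg (1455267_at). Further Ppargc1a probe sets gave -0.23 to 0.12 (1456395_at), -0.20 to 0.11 (1434099_at), -0.21 to 0.057 (1434100_x_at) and -0.13 to 0.36 (1437751_at). Ranges were -0.092 to 0.00086 for Esrrg 1457896_at, -0.32 to 0.0047 for Gabpa 1450665_at, -0.16 to 0.083 for Tfam 1456215_at, -0.44 to 0.062 for Mfn1 1419997_at and -0.23 to 0.0045 for Opa1 1449214_a_at. With single arrays left out, Gabpa gave 0.16 to 0.21 and Opa1 -0.22 to -0.12. No detection calls were used, so the dim Nrf1 signals could not be told from background.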
